A study of Homo sapiens with 30 samples.

Results

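Day 4 (D4) of cardiac differentiation was compared with day 3 (D3) in cells made from H7, a human embryonic stem cell line. The comparison covered every entry of the time-course table with at least 5 FPKM (fragments per kilobase of transcript, scaled to the mapped fragments of the library) at D4 or at D3. That left 11406 of 41495 entries, of which 10310 were protein-coding genes. The values stand for 4 of the 30 libraries, 2 per time point, and the table gives 1 value per time point, so there is no replicate spread and no test for D4 against D3. An entry was counted as higher or lower at D4 when log2(FPKM + 1) differed from D3 by at least 1, which is 2-fold on that scale. The scale understates the change of low genes. A change was counted as kept at D5 when log2(FPKM + 1) at D5 also differed by at least 1 from D3 in the same direction. The D4 and D5 differences share the D3 column.

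RNA was sequenced after removal of ribosomal RNA, so RNAs without a poly(A) tail were also measured. Per the labels' protocols, cells received the GSK3 inhibitor CHIR99021 at 12 µM for 24 hours from D1 in medium with B27 minus insulin. The WNT inhibitor IWP4 at 5 µM followed for 2 days in the same kind of medium, and then medium with complete B27, which contains insulin. The labels do not say in which of these media the D4 and D3 cells were collected. D2, D5 and D6 cells of the same line and protocol served as neighbours in time. The authors' 2 sort tables were read beside the step. One compares ROR2-positive with ROR2-negative cells of D3, and the other compares ROR2-positive, PDGFRa-positive with ROR2-positive, PDGFRa-negative cells of D4.

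Mesoderm is the germ layer that gives rise to heart, muscle, blood vessels and connective tissue. It forms when epithelial cells pass through the primitive streak under WNT, NODAL and BMP signals, and the cells that leave the streak first include those of the heart. In differentiation toward heart muscle, WNT is first activated and then blocked. Cardiac mesoderm then carries receptors such as PDGFRA and KDR and factors such as GATA6 and HAND1, and it makes its own matrix before it makes contractile protein.

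Metallothionein genes were among the largest increases at D4, and replication-dependent histone genes made up most of the largest decreases. The promoters of 3 metallothionein genes are printed to show how alike this gene family is upstream. Each line holds the 250 bases before the start of the gene, 5′ to 3′ on the strand of the gene, from RefSeq on GRCh38.p14. MT2A lies at chr16:56608334-56608583, MT1H at chr16:56669564-56669813 and MT1X at chr16:56682220-56682469, all on the plus strand. Capitals mark matches to the core of the metal response element, searched as TGCACNC or TGCGCNC on both strands, with overlapping matches merged.
MT2A: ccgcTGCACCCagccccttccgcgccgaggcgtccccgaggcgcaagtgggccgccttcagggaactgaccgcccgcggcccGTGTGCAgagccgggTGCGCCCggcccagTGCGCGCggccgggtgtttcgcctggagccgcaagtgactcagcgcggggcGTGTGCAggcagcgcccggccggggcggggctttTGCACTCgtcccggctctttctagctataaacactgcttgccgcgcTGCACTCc
MT1H: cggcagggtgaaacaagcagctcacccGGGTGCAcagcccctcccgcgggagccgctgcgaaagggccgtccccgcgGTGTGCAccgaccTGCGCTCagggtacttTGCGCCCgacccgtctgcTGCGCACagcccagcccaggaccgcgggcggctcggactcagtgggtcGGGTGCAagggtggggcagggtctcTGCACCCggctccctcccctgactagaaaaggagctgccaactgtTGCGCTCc
MT1X: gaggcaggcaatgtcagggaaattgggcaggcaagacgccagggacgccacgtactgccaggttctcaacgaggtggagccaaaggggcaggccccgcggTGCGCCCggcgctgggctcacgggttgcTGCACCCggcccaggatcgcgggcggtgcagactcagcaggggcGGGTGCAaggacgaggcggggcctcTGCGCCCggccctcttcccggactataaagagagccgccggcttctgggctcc
MT2A held 7 such stretches, MT1H 8 and MT1X 4. Of the 11 metallothionein genes, 5 had a promoter in the RefSeq table, and all 5 held between 3 and 8 stretches. At least 3 stretches were present in 1.05% of all 35116 promoters of that table, and at least 1 in 24.8%. A match is a description of the letters and not a measured binding site.

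Promoters of 2 histone H2B genes show the letters shared within that family. HIST1H2BB (H2BC3 in RefSeq) lies at chr6:26043714-26043963 on the minus strand, and HIST1H2BH (H2BC9) at chr6:26251364-26251613 on the plus strand, again on GRCh38.p14. Capitals mark CCAAT and the octamer ATTTGCAT, each searched on both strands.
HIST1H2BB: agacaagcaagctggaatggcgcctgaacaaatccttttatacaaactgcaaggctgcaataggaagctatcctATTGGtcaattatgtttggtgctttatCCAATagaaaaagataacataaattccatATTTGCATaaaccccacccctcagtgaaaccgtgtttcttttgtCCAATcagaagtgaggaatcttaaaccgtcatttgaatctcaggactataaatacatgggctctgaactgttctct
HIST1H2BH: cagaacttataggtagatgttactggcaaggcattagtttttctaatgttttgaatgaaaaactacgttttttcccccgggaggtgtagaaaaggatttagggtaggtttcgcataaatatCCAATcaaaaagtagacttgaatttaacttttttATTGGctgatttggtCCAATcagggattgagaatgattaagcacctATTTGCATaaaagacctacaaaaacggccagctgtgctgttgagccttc
Each of these promoters held CCAAT 3 times and the octamer once. CCAAT was in all 12 H2B and all 13 H2A promoters found, in all 9 of H3 and all 6 of H1, in 3 of 11 of H4 and in 11240 of all 35116 promoters. The octamer was in 8 of the 12 H2B promoters, 10 of the 13 H2A promoters, 1 of 9 of H3 and none of H1 (6) or H4 (11), against 1.63% of all promoters.

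The step between D3 and D4 was wide. Across 10740 protein-coding genes, Pearson's r of log2(FPKM + 1) was 0.873 between D4 and D3, against 0.929 between D3 and D2 and 0.955 between D5 and D4. It was 0.858 between D4 and D2, so that D3 lay between D2 and D4 by this measure. These are correlations across genes, which are not independent replicates. The summed FPKM of all entries was 683302 at D4 and 865417 at D3, and small RNAs took 27.4% at D4 and 28.0% at D3. Most of the largest differences of any RNA type belonged to copies of the U6 small nuclear RNA gene, of which 17 of 1316 were listed above 0 at D4 and 14 at D3. They are not used further. A further 161 entries, 51 of them protein-coding, jumped up and down between neighbouring columns by at least 4-fold. The tubulin gene TUBB3 is one: it was listed at 190 FPKM at D2, 0.0433 at D3, 162 at D4, 0.115 at D5, then 207 at D6. Such entries were left out of the ranked genes and are named as jumping where a list holds them.

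Of the 10310 protein-coding genes, 848 were higher (8.23%) and 953 lower (9.24%) at D4 than at D3. Over all 11406 entries, 1009 were higher (8.85%) and 1147 lower (10.1%), with a median difference of -0.13. Rescaling each column by its median ratio to the other columns shifted D4 against D3 by 0.108 on the log2 scale, which put the median at -0.01, and gave 1242 higher and 933 lower, so that 57.1% rather than 46.8% of the entries past 2-fold were higher. More protein-coding genes passed 2-fold in this step than between D3 and D2, where 314 were higher and 757 lower, or between D5 and D4, where 253 were higher and 85 lower. Just past the limit stood MORN1, at 12.3 FPKM at D4 and 5.63 at D3, and just short of it DBC1, at 11.1 at D4 and 5.04 at D3. On the lower side WDR43 just passed, at 43.8 at D4 and 88.7 at D3, and USP3 just missed, at 19.1 at D4 and 39.1 at D3. The 5 FPKM floor admitted P4HTM, whose larger value was 5.001, and left out IRS2, at 4.996.

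**Figure D1:**
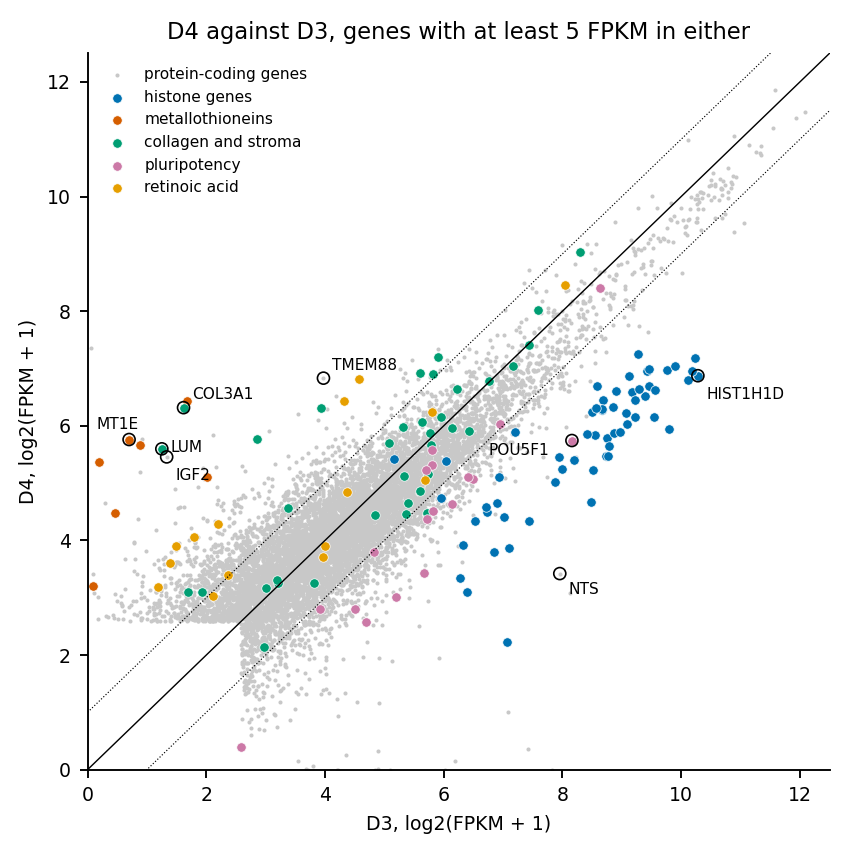
Each point is a protein-coding gene, with log2(FPKM + 1) at D4 on the vertical axis and at D3 on the horizontal axis; rings mark the genes written in the plot, 1 value per time point. The solid line marks equality and the dotted lines a 2-fold difference. The histone genes lie below the lower dotted line, with 58 of 61 at least 2-fold lower, and the metallothioneins lie far above the upper one.

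At D5, 635 of the 848 higher genes (74.9%) were still at least 2-fold above D3, and 578 of the 953 lower genes (60.7%) were still at least 2-fold below it. Few went on in the same direction by a further 2-fold between D4 and D5: 25 of the higher and 21 of the lower. A 2-fold return between D4 and D5 was seen in 30 of the higher and 99 of the lower genes.

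D2 separates differences that go beyond the earlier level from those in which D3 lay below, or above, both of its neighbours. Of the higher genes, 367 were also at least 2-fold above D2. Another 257 were not, and had a D3 value at least 2-fold below both D2 and D4. The other 224 higher genes were in neither class. Of the lower genes, 590 were also at least 2-fold below D2. Another 106 were not, and had a D3 value at least 2-fold above both D2 and D4. The rest of the lower genes were in neither class. Of the 367 higher genes beyond D2, 291 (79.3%) kept the difference at D5, and 247 (67.3%) were also at least 2-fold above D2 at D6. Of the 590 lower genes beyond D2, 351 (59.5%) were kept at D5 and 250 (42.4%) were also at least 2-fold below D2 at D6.

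LAMTOR5, TIMM9 and TAMM41 are given as examples of the 257 genes low at D3 against both neighbours. METTL10, FAM229B and R3HCC1 had differences of like size. The functions of the 257 genes were not counted. LAMTOR5, a subunit of the lysosomal Ragulator complex, stood at 59.9 FPKM at D2, 10.6 at D3, 72.6 at D4 and 47.1 at D5. TIMM9, a chaperone of the mitochondrial intermembrane space, stood at 30.6 at D2, 3.60 at D3, 25.1 at D4 and 18.1 at D5. TAMM41, which makes a precursor of the mitochondrial lipid cardiolipin, stood at 7.36 at D2, 0.975 at D3, 13.0 at D4 and 14.1 at D5. The longest annotated transcript had a median length of 3017 nt among these 257 genes, 4661 nt among the 367 genes higher beyond D2, 2670 nt among the 590 genes lower beyond D2, and 3887 nt among the 8509 genes past neither limit. The part of transcript length and of the D3 libraries in these differences was not tested.

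MT1E, COL3A1, ATP6V1B1, LUM and HS6ST2 had the largest increases among protein-coding genes. All of the 15 largest were also at least 2-fold above D2, and 14 kept the difference at D5. In bulk RNA, more cells of a type and more RNA per cell cannot be told apart. The collagen gene COL3A1, which encodes the fibrillar type III chain, stood at 0.505 FPKM at D2, 2.07 at D3, 78.7 at D4, 177 at D5, then 308 at D6. The D4 minus D3 difference was 4.70 on the log2(FPKM + 1) scale, and the gene went further at D5. LUM, which encodes the collagen-binding proteoglycan lumican, stood at 0.104 at D2, 1.38 at D3, 47.4 at D4, 64.5 at D5, then 98.8 at D6, so D5 kept its difference of 4.35.

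IGF2, a fetal growth factor expressed from the paternal allele, stood at 0.931 FPKM at D2, 1.52 at D3, 42.9 at D4, 108 at D5, then 79.1 at D6. Its neighbour H19, a maternally expressed noncoding RNA, stood at 2.42 at D2, 3.30 at D3, 222 at D4, 706 at D5, then 1321 at D6. Both went further at D5, with D4 minus D3 differences of 4.12 for IGF2 and 5.70 for H19. TMEM88, an inhibitor of WNT signalling at the membrane, had its highest value of these days at D4, with 12.9 at D2, 14.7 at D3, 113 at D4, 65.6 at D5, then 77.5 at D6. D5 kept its difference of 2.86.

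Muscle genes were among the 15 as well. TNNT2, the cardiac troponin T gene, stood at 3.05 FPKM at D2, 1.79 at D3, 28.7 at D4, 118 at D5, then 502 at D6, and had the largest D5 minus D4 difference of these 3 muscle genes. ANKRD1, a cardiac ankyrin repeat gene, stood at 10.8 at D2, 3.35 at D3, 56.004 at D4, 129.5 at D5, then 98.1 at D6. PDE3A, a phosphodiesterase that breaks down cyclic AMP, stood at 0.256 at D2, 0.799 at D3, 19.6 at D4, 52.3 at D5, then 34.5 at D6. These 3 genes and COL3A1 and IGF2 were the 5 of the 15 that were at least another 2-fold higher at D5 than at D4.

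Other leading genes reached their level at D4 and stayed near it. HS6ST2, which adds sulfate to heparan sulfate, stood at 0.834 FPKM at D3, 35.7 at D4 and 36.1 at D5. GUCY1A3, a subunit of the nitric oxide receptor guanylate cyclase, stood at 2.84 at D3, 37.3 at D4 and 37.1 at D5. TGFBI, a matrix protein gene, stood at 3.47 at D3, 37.7 at D4 and 39.5 at D5, and SMTNL2, a smoothelin-like gene, at 0.719 at D3, 14.8 at D4 and 15.6 at D5. All 4 kept the difference at D5.

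A last group was highest at D4. ATP6V1B1, a subunit of the vacuolar proton pump, stood at 0.223 FPKM at D3, 24.0 at D4, 6.22 at D5, then 2.59 at D6. PLSCR5, of the phospholipid scramblase family, stood at 0.0608 at D3, 9.59 at D4, 4.95 at D5, then 7.94 at D6, and SLC40A1, the iron exporter ferroportin, at 0.709 at D3, 14.4 at D4, 9.35 at D5, then 6.80 at D6. D5 kept these 3 differences, although each level at D5 was below that at D4. The metallothionein MT1E, at 0.623 at D3, 53.2 at D4, 10.5 at D5, then 0.317 at D6, was kept by the same rule. MT1F, at 0.377 at D3, 21.3 at D4, 1.41 at D5, then 0.472 at D6, was the 1 gene of the 15 that was not kept.

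**Figure D2:**
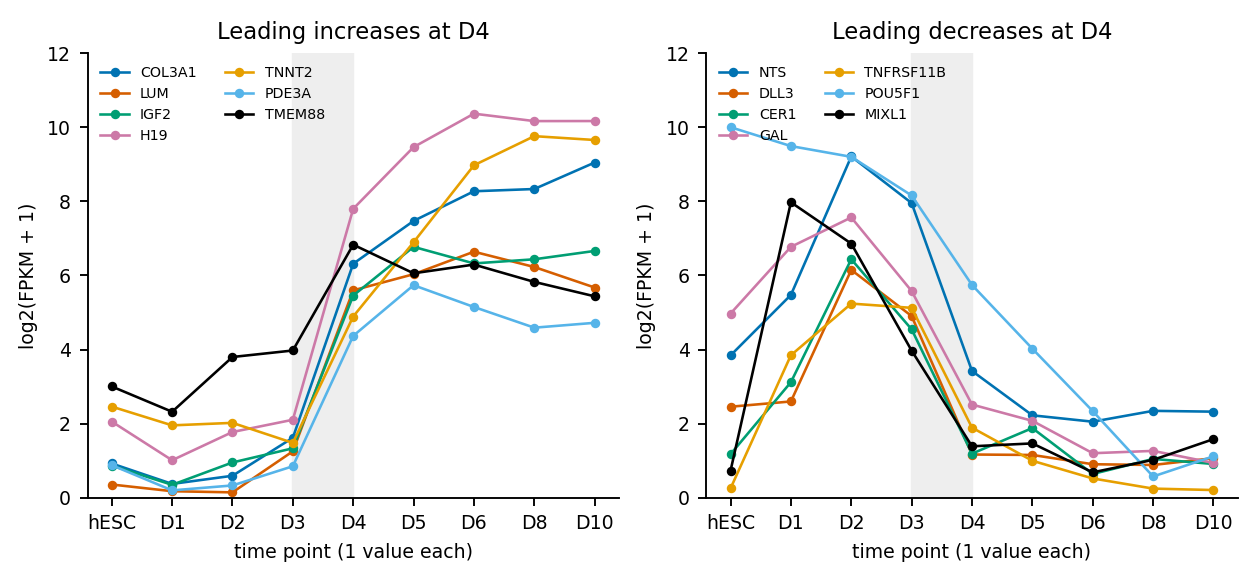
Lines give log2(FPKM + 1), 1 value per time point, of 7 genes that were higher (left) and 7 that were lower (right) at D4 than at D3; the shaded band is the D3 to D4 interval. COL3A1, IGF2, H19, TNNT2 and PDE3A were higher again at D5, TMEM88 was highest at D4, and the genes on the right lay close to their low level from D5 on, except POU5F1, which was lower again at D6.

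The largest decreases were mostly of histone genes. Of the 15 largest, 9 were histone genes, 14 kept the difference at D5, and 14 were also at least 2-fold below D2. NTS, which encodes the peptide neurotensin, stood at 592 FPKM at D2, 247 at D3, 9.71 at D4, 3.67 at D5, then 3.14 at D6, and was the 1 gene of the 15 that was lower by another 2-fold at D5. DLL3, a NOTCH ligand gene of presomitic mesoderm, stood at 70.0 at D2, 28.9 at D3, 1.24 at D4 and 1.22 at D5. CER1, a secreted antagonist of NODAL and BMP, stood at 85.7 at D2, 22.4 at D3, 1.28 at D4 and 2.68 at D5. These 3 genes were already lower at D3 than at D2, and D5 kept the D4 difference in each.

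TNFRSF11B, the gene of the decoy receptor osteoprotegerin, stood at 36.8 FPKM at D2, 33.9 at D3, 2.71 at D4 and 0.994 at D5, so that the D3 value was still near that of D2. GALNT3, which starts O-linked sugar chains, stood at 5.80 at D2, 17.7 at D3, 0.920 at D4 and 1.26 at D5. GAL, which encodes the peptide galanin, stood at 189 at D2, 46.8 at D3, 4.71 at D4 and 3.21 at D5. D5 kept all 3. HIST1H1T, a histone H1 gene known from testis, stood at 6.85 at D2, 132.5 at D3, 3.67 at D4 and 3.98 at D5, so that D3 stood apart from these neighbours. In the authors' deposited table of the D3 sort it stood at 21.0 in the ROR2-positive and 32.3 in the ROR2-negative cells.

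Metallothioneins bind zinc and copper and are induced by these metals. Of the 11 listed genes, all were in the table, 7 passed the floor, all through D4, and those 7 were higher at D4, 3 of them jumping by the rule above. The 11 genes summed to 79.4 FPKM in hESC, 69.3 at D1, 15.9 at D2, 7.39 at D3, 293.9 at D4, 33.1 at D5, then 5.97 at D6. The sum at D4 was 39.8 times that at D3. The 3 jumping genes had the same order of days: MT1G stood at 2.20 at D3, 85.2 at D4 and 5.35 at D5, MT2A at 0.854 at D3, 49.9 at D4 and 6.98 at D5, and MT1H at 0.137 at D3, 40.4 at D4 and 1.76 at D5. The 3 genes kept at D5 were MT1E, MT1H and MT2A. The coding parts of these genes are near copies of each other, so the split of reads between members is uncertain and the sum is the firmer value.

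SLC30A1, the zinc exporter of the cell membrane and also induced by zinc, stood at 8.65 FPKM at D4 and 3.51 at D3. It was chosen after values were seen. The part of zinc or of any other inducer in the metallothionein values was not tested. By the authors' deposited table of the D4 sort, 6 of the 11 were listed and all 6 were higher in the PDGFRa-negative cells. In that sort, 51.2% of the 2838 listed protein-coding genes past the floor were higher in the positive cells. MT1E stood at 34.5 FPKM in the positive and 64.5 in the negative cells of the authors' deposited table, and MT2A at 24.9 in the positive and 52.9 in the negative cells. None of the 11 was in the authors' deposited table of the D3 sort, which holds only genes with a q-value under 0.05.

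Replication-dependent histone genes are transcribed in S phase, and their mRNAs end in a stem-loop instead of a poly(A) tail. Of 61 listed genes, 60 passed the floor, 58 were lower at D4 and 0 were higher, and 14 of the 58 were jumping entries. The median difference over all 61 was -2.77, against -0.13 over all entries. The median level was 294 FPKM at D2, 407 at D3, 58.2 at D4, 239 at D5, then 282 at D6. At D5, 23 of the 58 were still at least 2-fold below D3, and the median D5 minus D3 difference was -0.89. Since many of these genes are near-identical copies, their sums were compared as well.

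Every histone class had a lower sum at D4 than at D3, and a sum between the 2 at D5. The 6 H1 genes summed to 4641 FPKM at D3, 507 at D4 and 1838 at D5, and the 14 H2A genes to 4382 at D3, 675 at D4 and 2650.0 at D5. The 17 H2B genes summed to 7666 at D3, 1307 at D4 and 4702 at D5, the 11 H3 genes to 6776 at D3, 709 at D4 and 2896 at D5, and the 13 H4 genes to 3068 at D3, 673 at D4 and 2496 at D5. The ratio of D3 to D4 was lowest for H4, at 4.56, and highest for H3, at 9.55. H4 also differed in the step before: 5 of 13 H4 genes were higher at D3 than at D2, against 6 of 6 for H1, 13 of 14 for H2A, 17 of 17 for H2B and 11 of 11 for H3.

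**Figure D3:**
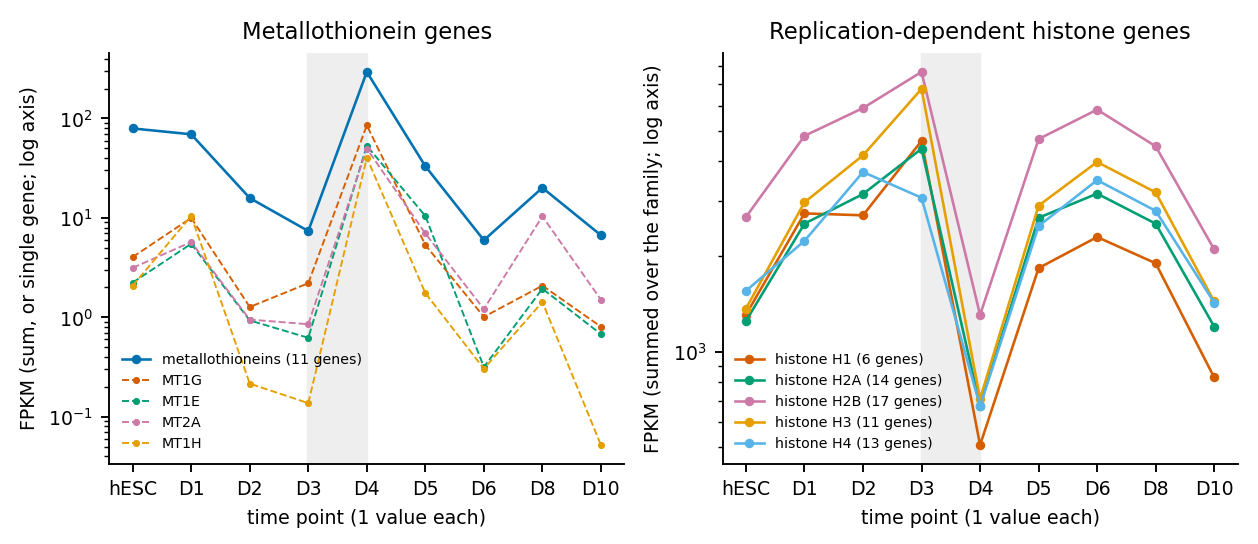
Left, FPKM summed over 11 metallothionein genes (solid) and of 4 single genes (dashed); right, FPKM summed over each class of replication-dependent histone genes; all on log axes, 1 value per time point, with the D3 to D4 interval shaded. The metallothionein sum peaks at 293.9 at D4 and is 33.1 at D5, and all 5 histone sums have their lowest value of the 9 columns plotted (hESC to D10) at D4.

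Some genes of DNA replication and mitosis were at least 2-fold lower at D4, and few of them were still so at D5. Over all entries past the floor 10.1% were lower, and 60.9% of those were kept at D5. Of 41 replication genes, 40 passed the floor, 15 were lower and 0 higher, and 0 of the 15 kept the difference at D5. The median difference was -0.79 at D4 and -0.04 at D5. After rescaling of the columns 9 rather than 15 replication genes were lower. PCNA, the sliding clamp of DNA polymerases, stood at 179 FPKM at D3, 64.2 at D4 and 115 at D5, and FEN1, a flap nuclease, at 60.7 at D3, 17.9 at D4 and 33.6 at D5.

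Of 42 mitosis genes, all passed the floor, 19 were lower and 0 higher, with a median difference of -0.93 at D4 and -0.25 at D5. After rescaling 13 were lower. The spindle checkpoint gene MAD2L1, at 114 FPKM at D3, 30.97 at D4 and 50.7 at D5, and the hyaluronan receptor and spindle gene HMMR, at 84.6 at D3, 24.9 at D4 and 33.2 at D5, were the 2 kept at D5. AURKA, a mitotic kinase, stood at 62.5 at D3, 21.5 at D4 and 32.3 at D5. Among 21 inhibitors and brakes of the cell cycle, BTG2, an antiproliferative gene, stood at 40.2 at D4 and 10.3 at D3, and RBL2, of the retinoblastoma family, at 26.9 at D4 and 9.03 at D3. RBL1 was lower at D4, is a jumping entry, and the other 18 were within the 2-fold limit or under the floor.

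Histone and mitosis genes were also looked up in the D4 sort. By the authors' deposited table of the D4 sort, 53 of the 61 histone genes were listed and all 53 were higher in the positive cells. The share among all 2838 listed protein-coding genes past the floor was 51.2%. That authors' deposited table also lists 28 of the 42 mitosis genes, 27 of them higher in the positive cells. Of the 41 replication genes the authors' deposited table lists 6, with 3 higher in the positive and 3 in the negative cells. HIST1H1D, at 116 FPKM in the unsorted D4 column, stood at 287 in the positive and 208 in the negative cells of the authors' deposited table, and the sort tables were scaled apart from the time course. HIST1H3A, at 366 at D3 and 36.6 at D4 in the time course, stood at 144 (positive) and 179 (negative) in the D3 sort. In the D4 sort it stood at 188 and 129. HIST2H3D, at 597 at D3 and 70.1 at D4, stood at 182 and 238 in the D3 sort and at 115 and 88.4 in the D4 sort. For both genes the sorted cells did not show a difference of the time-course size.

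Pluripotency genes were lower at D4, and the difference was kept. Of 25 listed genes, 18 passed the floor, 13 were lower and 0 higher, and all 13 kept the difference at D5, with a median over all 25 of -1.298. POU5F1, the core pluripotency factor OCT4, stood at 588 FPKM at D2, 285 at D3, 52.5 at D4, 15.2 at D5, then 4.05 at D6. ZFP42, the marker REX1, stood at 50.0 at D3, 9.78 at D4 and 4.80 at D5, and TDGF1, a NODAL co-receptor, at 35.8 at D3, 7.06 at D4 and 1.30 at D5. By the authors' deposited table of the D4 sort, POU5F1 stood at 9.30 in the PDGFRa-positive and 63.3 in the PDGFRa-negative cells.

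Several primitive streak genes, already lower at D3 than at D2, were lower again at D4, beside 10.1% of all entries past the floor. Of 24 listed genes, 10 passed the floor, 5 were lower and 1 was higher, with a median over all 24 of -0.71. The lower ones, all kept at D5, were CER1, given above, and MIXL1, EOMES, SP5 and FST. MIXL1, a mesendoderm homeobox factor, stood at 115 FPKM at D2, 14.7 at D3, 1.61 at D4 and 1.76 at D5, and EOMES, a T-box factor of the streak, at 63.9 at D2, 15.1 at D3, 4.40 at D4 and 0.908 at D5. The higher one, the homeobox gene LHX1, was at 10.6 at D2, 2.01 at D3, 8.06 at D4 and 2.89 at D5, and was not kept.

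The cardiac mesoderm label was checked against its markers, beside 8.85% higher and 10.1% lower over all entries past the floor. Of 30 cardiac mesoderm and progenitor genes, all in the table, 20 passed the floor, 7 were higher at D4 and 0 lower. The median over all 30 was 0.77. PDGFRA, the receptor used for the D4 sort, stood at 19.5 FPKM at D2, 43.04 at D3, 141 at D4 and 156 at D5. KDR, the VEGF receptor of early vascular and cardiac progenitors, stood at 26.5 at D2, 23.3 at D3, 64.2 at D4 and 21.8 at D5, and was the 1 of the 7 that was not kept.

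The zinc finger factor GATA6 stood at 25.3 FPKM at D4 and 9.47 at D3, the T-box factors TBX20 at 6.48 at D4 and 1.25 at D3 and TBX2 at 6.45 at D4 and 2.40 at D3, and MYOCD, a coactivator of muscle genes, at 13.7 at D4 and 5.15 at D3. HAND1, at 45.1 at D4 and 24.6 at D3, and GATA4, at 12.7 at D4 and 7.03 at D3, did not reach 2-fold. The cardiac factors NKX2-5, at 0.944 at D4 and 0.984 at D3, and TBX5, at 1.01 at D4 and 0.123 at D3, were under the floor in both columns. MESP1, the early factor of cardiac mesoderm, was also under it, at 0.748 at D4 and 3.70 at D3.

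Markers of other lineages were checked in the same way. Of 14 blood genes, 0 passed the floor in either column. Of 21 endothelial genes, 20 were in the table, all but PECAM1, and 4 passed the floor: KDR, given above, SOX17, given below, FLT1, at 18.5 FPKM at D4 and 35.4 at D3, and EGFL7, at 8.55 at D4 and 16.8 at D3. CDH5, which joins endothelial cells, stood at 0.692 FPKM at D4 and 0.191 at D3. Of 12 skeletal muscle genes, 0 passed the floor. Of 14 epicardial and lateral plate genes, 4 passed and none differed by 2-fold, with WT1 at 0.508 at D4 and 0.140 at D3 and the keratin KRT19, which other epithelia also express, at 290 at D4 and 201 at D3. Of 20 neural genes, 7 passed, of which SOX2, also a pluripotency factor, was lower at 19.8 FPKM at D4 and 51.5 at D3, and the jumping entry TUBB3 was higher; NES, of neural and other progenitors, stood at 54.97 at D4 and 46.5 at D3.

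Liver and endoderm genes split, beside 8.85% higher and 10.1% lower over all entries past the floor. Of 19, 10 passed the floor, 3 were higher and 2 lower, and all 5 kept the difference at D5. FGB, a fibrinogen chain, stood at 7.42 FPKM at D4 and 0.0744 at D3, the apolipoprotein gene APOA2 at 12.9 at D4 and 3.36 at D3, and GATA3 at 8.72 at D4 and 2.81 at D3. The endoderm factor SOX17 stood at 1.09 at D4 and 6.45 at D3, and FOXA3 at 2.61 at D4 and 6.78 at D3. Of 16 epithelial and trophoblast genes, 3 were higher, GATA3 and the keratins KRT8, at 546 at D2, 254 at D3, 572 at D4 and 888 at D5, and KRT18, at 456 at D2, 171 at D3, 423 at D4 and 775 at D5. Both keratins were near their D2 level at D4.

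Some contractile genes were already present at D4, when 8.85% of all entries past the floor were higher and 10.1% lower. Of 34 listed, 22 passed the floor, 5 were higher, all kept at D5, and 1 was lower, with a median over all 34 of 0.34 at D4 and 0.94 at D5. Apart from TNNT2, these were the slow skeletal troponin I gene TNNI1, at 0.737 FPKM at D3, 11.7 at D4 and 59.8 at D5, phospholamban (PLN), at 0.485 at D3, 7.20 at D4 and 25.8 at D5, CSRP1, at 1.88 at D3, 22.6 at D4 and 33.5 at D5, and tropomyosin TPM1, at 208 at D3, 422 at D4 and 1122 at D5. The cardiac actin gene ACTC1 was lower at D4, at 13.4 at D2, 60.1 at D3, 22.9 at D4 and 54.6 at D5.

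Collagens and stromal matrix formed a second group, read beside the 8.85% higher and 10.1% lower over all entries past the floor. Of 44 listed genes, 36 passed the floor, 10 were higher and 1 lower, and all 11 kept the difference at D5. The median over all 44 was 0.18. After COL3A1 and LUM came COL1A1, a type I collagen chain, at 6.19 FPKM at D3, 53.5 at D4 and 134 at D5, and NID2, a basement membrane linker, at 14.2 at D3, 78.0 at D4 and 116 at D5. The other 6 were COL1A2, COL2A1, COL6A3, TNC, TIMP1 and TIMP3. COL9A3, a chain of the cartilage collagen IX, was the lower one, at 51.8 at D3, 21.3 at D4 and 16.6 at D5.

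Beside IGF2, some genes of insulin-like growth factor signalling were higher. Over all entries past the floor 8.85% were higher, and 70% of those were kept at D5. Of 21 listed, 17 passed the floor, 4 were higher and 0 lower, and all 4 kept the difference at D5. The binding protein genes IGFBP3, at 32.6 FPKM at D4 and 2.91 at D3, IGFBP5, at 8.96 at D4 and 2.59 at D3, and IGFBP6, at 9.44 at D4 and 3.13 at D3, were the other three. Of 22 imprinted genes, 13 passed the floor and IGF2, H19 and MEST were higher, and MEST, at 99.8 at D2, 33.4 at D3, 71.8 at D4 and 122 at D5, stood below its D2 level at D4.

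Retinoic acid is made from vitamin A and helps to pattern the heart field. Of 23 genes of its synthesis, breakdown and response, 15 passed the floor, 8 were higher and 0 lower, and 7 of the 8 kept the difference at D5. The median over all 23 was 0.44, and 8.85% of all entries past the floor were higher. The receptor gene RARB, itself a target, stood at 0.528 FPKM at D2, 1.80 at D3, 13.9 at D4 and 22.0 at D5. The homeobox partners MEIS1, at 22.7 at D3, 112 at D4 and 129 at D5, and MEIS2, at 18.99 at D3, 85.2 at D4 and 110.4 at D5, and the retinol transporter STRA6, a jumping entry, at 3.56 at D3, 18.6 at D4 and 15.4 at D5, showed the same order of D4 over D3.

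The reductase gene DHRS3, which lowers retinaldehyde, stood at 11.1 FPKM at D4 and 1.63 at D3, and the orphan receptor gene NR2F1 at 8.10 at D4 and 1.27 at D3. ALDH1A2, the synthesis enzyme of mesoderm, was under the floor, at 3.52 at D4 and 3.09 at D3. Of 39 HOX genes, 4 passed the floor, all 4 through D4. HOXB1 stood at 2.47 at D3, 15.7 at D4 and 13.7 at D5, HOXB2 at 2.71 at D3, 11.0 at D4 and 12.6 at D5, and HOXB3 at 3.63 at D3, 13.1 at D4 and 14.9 at D5.

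Some canonical WNT target genes were lower, beside 10.1% of all entries past the floor. Of 22 WNT target genes, 16 passed the floor, 4 were lower and 0 higher, all 4 kept at D5, with a median over all 22 of -0.31. DKK1, a secreted antagonist and target, stood at 101 FPKM at D2, 89.5 at D3, 20.6 at D4 and 7.51 at D5, and SP5, a factor induced by WNT, at 72.04 at D2, 35.7 at D3, 9.32 at D4 and 2.14 at D5. NKD1, a feedback inhibitor, stood at 5.204 at D4 and 19.2 at D3, and NOTUM, an enzyme that inactivates WNT proteins, at 4.13 at D4 and 11.6 at D3.

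WNT antagonists were found in both directions, beside 8.85% higher and 10.1% lower over all entries past the floor. Of 20, 10 passed the floor, TMEM88 and SFRP5 were higher and DKK1, SFRP2 and NOTUM lower. The secreted inhibitor SFRP5 stood at 1.07 FPKM at D2, 1.94 at D3, 22.9 at D4, 44.6 at D5, then 87.2 at D6, whereas SFRP2 stood at 56.04 at D2, 31.7 at D3, 8.74 at D4, 3.99 at D5, then 2.498 at D6. Of 34 ligand and receptor genes, 20 passed, 2 were higher and 2 lower. The receptor FZD4 stood at 4.86 at D3, 23.4 at D4 and 25.1 at D5, and was kept. The receptor FZD2 stood at 9.75 at D2, 3.97 at D3, 10.9 at D4 and 8.56 at D5. FZD2 was near its D2 level at D4 and was not kept. The ligand WNT5B, at 2.99 at D4 and 11.4 at D3, was lower. So was the enhancer of WNT signalling RSPO3, at 3.30 at D4 and 7.62 at D3, and D5 kept both.

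Further signalling and lineage lists held genes in both directions, beside 8.85% higher and 10.1% lower over all entries past the floor. Of 26 BMP pathway genes, 21 passed the floor, 1 was higher and 1 lower. The higher one, the BMP antagonist GREM1, stood at 10.5 FPKM at D3, 22.6 at D4 and 9.41 at D5, and was not kept. FST, at 55.4 at D3, 19.1 at D4 and 5.99 at D5, was the lower one and was kept. Of 27 FGF pathway genes, 18 passed, 2 were higher and 4 lower: the ERK feedback phosphatase DUSP6 stood at 78.4 at D2, 33.6 at D3, 78.1 at D4 and 78.9 at D5, and the ligand FGF2 at 4.76 at D4 and 19.5 at D3. Of 21 NOTCH genes, 9 passed and DLL3, HES6 and the jumping entry JAG1 were lower. Of 15 paraxial mesoderm genes, 5 passed, and MEOX1, a somite homeobox gene, stood at 0.132 at D3, 7.06 at D4 and 1.70 at D5.

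Several glycolysis genes were lower, beside 10.1% of all entries past the floor. Of 35 glycolysis and hypoxia genes, 33 passed the floor, 10 were lower and 1 was higher, and 7 of the 10 kept the difference at D5, with a median over all 35 of -0.72. After rescaling of the columns 5 rather than 10 were lower. LDHA, which makes lactate, stood at 174 FPKM at D2, 266 at D3, 61.9 at D4 and 49.2 at D5, and PGAM1, of lower glycolysis, at 352 at D3, 109 at D4 and 147 at D5. PDK1, a kinase that inhibits pyruvate dehydrogenase, was at 76.1 at D3, 22.3 at D4 and 39.1 at D5. NDRG1, a hypoxia-induced gene, was the higher one, at 11.2 at D4 and 1.92 at D3.

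Some immediate early genes, which respond within minutes to growth factors and handling, were higher, beside 8.85% of all entries past the floor. Of 20 listed, 19 passed the floor, 7 were higher and 1 lower, 6 of the 7 kept at D5, with a median over all 20 of 0.42. EGR1 stood at 28.7 FPKM at D3, 79.1 at D4 and 80.0 at D5, the jumping entry EGR2 at 2.47 at D3, 13.8 at D4 and 9.71 at D5, and NR4A1 at 20.3 at D3, 48.8 at D4 and 52.0 at D5. The heat shock cochaperone DNAJB1 was the lower one, at 26.5 at D4 and 74.0 at D3. The part of handling at collection in these values was not tested.

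**Figure D4:**
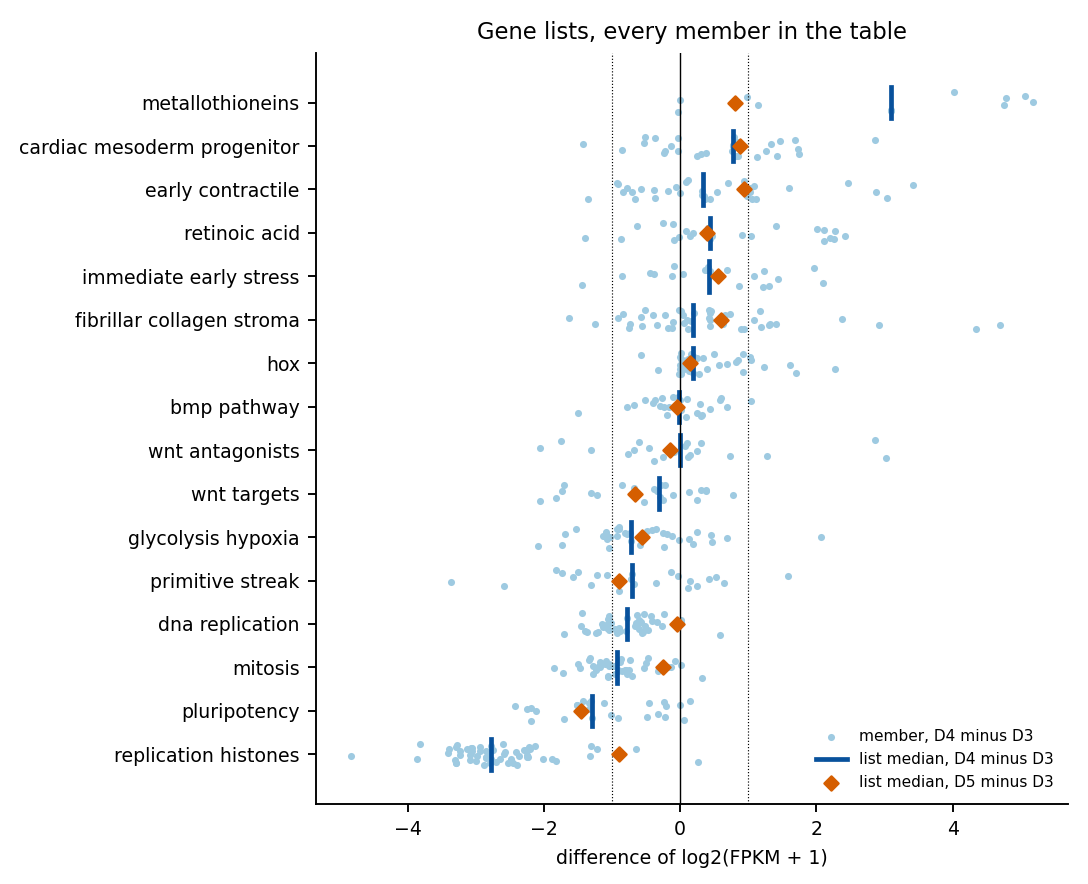
Each light point is 1 gene of a list, placed at its D4 minus D3 difference of log2(FPKM + 1) from 1 value per time point; the bar is the list median and the orange diamond the median of D5 minus D3; dotted lines mark 2-fold. Metallothioneins (3.10) and histones (-2.77) have the outermost D4 medians, and both D5 medians lie nearer 0, at 0.81 and -0.89. The metallothionein list was added after values were seen, so its place among the lists is not a result.

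The genes of the step were looked up in the sorted cells. At D3, the authors' deposited table of the ROR2 sort lists 370 of the 848 genes that were higher at D4, and 334 of them (90.3%) were higher in the ROR2-positive cells. Of the 953 lower genes, 450 were listed in the authors' deposited table and 75 (16.7%) were higher in the positive cells. Of the 8509 genes past neither limit, 2002 were in that authors' deposited table, and 63.9% were higher in the positive cells.

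At D4 the sort was by PDGFRa. The authors' deposited table of the PDGFRa sort lists 339 of the 848 higher genes, with 254 (74.9%) higher in the PDGFRa-positive cells. For the 953 lower genes the authors' deposited table lists 359, with 189 (52.6%) higher in the positive cells, against 47.2% of 2140 listed genes past neither limit. COL3A1 stood at 76.8 FPKM in the positive and 1.08 in the negative cells of the authors' deposited table, TMEM88 at 172 in the positive and 13.4 in the negative cells, and TNNT2 at 63.3 in the positive and 3.60 in the negative cells. IGF2, in the authors' deposited table at 40.1 in the positive and 11.1 in the negative cells, was closer between them, as was HS6ST2, at 18.1 in the positive and 6.83 in the negative cells. For NTS the authors' deposited table gives 13.1 in the positive and 30.9 in the negative cells. Of the 15 largest decreases 12 were listed, with 9 higher in the positive cells and 3, NTS among them, in the negative cells.

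**Figure D5:**
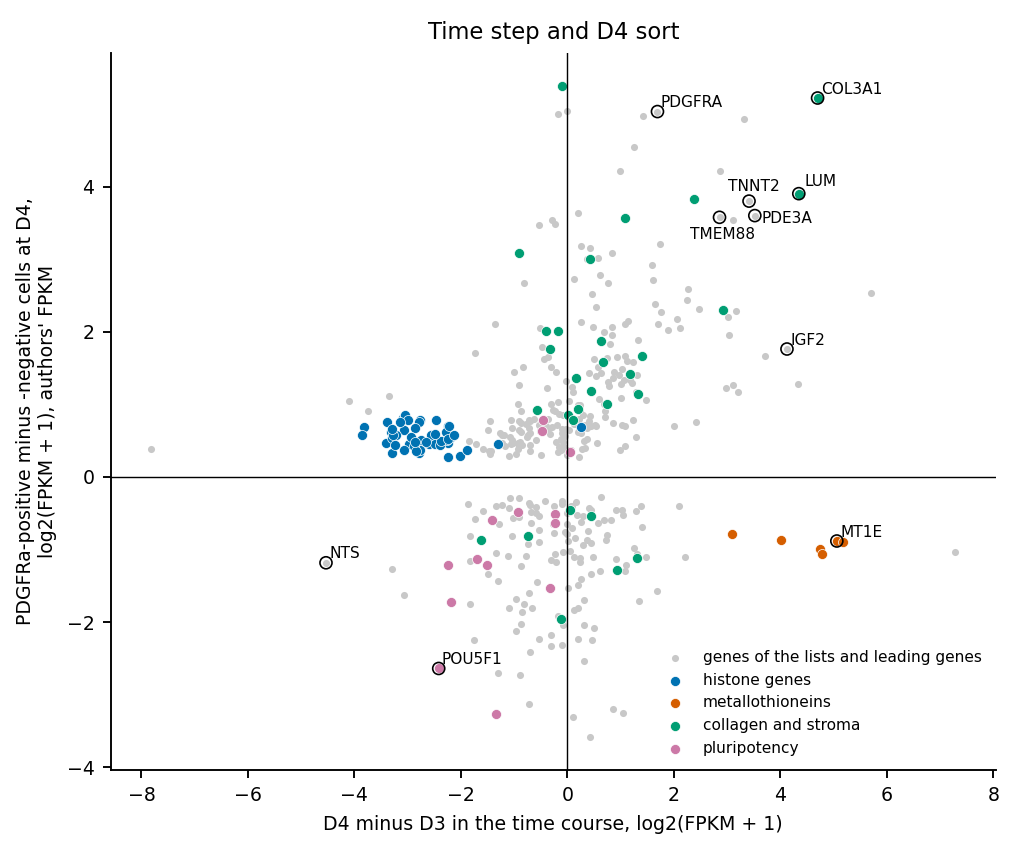
Each point is a gene of the lists or a leading gene that is in the authors' deposited table of the D4 sort; the horizontal axis is D4 minus D3 in the time course and the vertical axis the PDGFRa-positive minus the PDGFRa-negative cells, both as differences of log2(FPKM + 1); rings mark the genes written in the plot. The band around 0 on the vertical axis is empty because the table holds only genes with a q-value under 0.05. All 53 histone genes lie left or just right of the vertical line and above the horizontal one, and all 6 metallothioneins lie to the right and below.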

How the data were processed

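H7 cells and their derivatives were sequenced at 11 time points and in 4 sorted populations, 2 libraries per group. The labels do not say whether these came from separate cultures. The authors' time-course table was deposited with 1 value per gene and time point. Its unit is taken as FPKM from the values and from the tools that the submitters' processing notes list: Cufflinks (no version), Bowtie2 2.1.0.0 and TopHat2 2.0.8b, with build hg19. Annotation, strand setting and scaling were not given in the sources used here. The 2 sort tables hold, per the file headers, the authors' FPKM of each population, the log2 fold change, the linear ratio or fold, the p-value, the q-value and a test statistic, which is a score. Every listed gene has a q-value below 0.05 (largest 0.0497 at D3 and 0.0499 at D4), so a missing gene is not read as equal.

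Differences are of log2(FPKM + 1) with a floor of 5 FPKM in either column, without a test, since libraries are not given apart. Read depth is unknown: of 6165 entries under 0.3 FPKM, only 51 shared the most common D4 to D3 ratio. Gene types came from GENCODE 29 and RefSeq by name, with 94.6% of entries typed. Near-identical copies are reported as uncertain. A jumping entry moves by at least 4-fold in opposite directions at least 2 times. Genes named are the 15 largest protein-coding increases and decreases that do not jump and the 4 largest differences of each list; others named were chosen after their values were seen. The members and the 32 lists were chosen with earlier results of these data known, and the metallothionein list was added after values were seen. The count rule was run on copies of the D3 column with exact 4-fold changes put into 200 entries and no noise. This checks the code and not how the rule performs on real values. Python 3.11.15, pandas 2.3.3, numpy 2.4.6 and matplotlib 3.10.9 were used. Some genes of the lists are not reported here by name.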

Additional observations from a re-analysis of the deposited data

How the results depend on the processing

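Counts of entries 2-fold higher or lower, and the share kept at D5, were recomputed under other settings. No paired analysis was possible because the table gives 1 value per time point and its columns carry no replicate numbers; leaving out a library could not be run for the same reason. The counts were 213 higher and 234 lower at a 4-fold limit, and 485 higher and 681 lower when a 2-fold difference from D2 was also required, a setting chosen after seeing the data. Other settings gave 788 to 1475 higher and 933 to 1368 lower, against 1009 and 1147 as reported. The share of higher entries kept at D5, 70.0% as reported, was 74.2% with a pseudocount of 0.1, 64.6% with no floor and also 64.6% with a floor of 1 FPKM, 74.9% for protein-coding genes only, 87.0% when D5 had only to stay nearer to D4 than to D3, 40.0% with D2 as baseline and 63.0% with D6 as the later day. The share of lower entries kept, 60.9% as reported, was 79.9% under that looser rule, 42.0% with D2 as baseline and 47.5% with D6. D4 minus D2 was also computed for the 154 genes taken by rank, as markers or from the lists by size. Among those at least 2-fold different from D3, it had the opposite sign to D4 minus D3 for ARRDC4 (1.13), DUSP6 (-0.0059), HMGCS1 (-1.73), KRT18 (-0.11), LHX1 (-0.36), MEST (-0.47) and TUBB3 (-0.23). Among those within 2-fold of D3, the sign was opposite for NES, FLT1, SEMA3D and MVK. The list medians of WNT antagonists, BMP and FGF genes were negative as reported and positive (0.06, 0.08 and 0.09) after rescaling, so no direction is given for them. The causes of these differences were not tested. Unknown depth limits the low values, and differences below the spread between libraries cannot be recognised.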

Other observations

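Cholesterol synthesis genes mostly stood within the 2-fold limit between D4 and D3 but below their level at D2. Of 32 listed, 30 were in the table and 29 passed the floor, and the median D4 minus D3 difference was 0.03 while the median D4 minus D2 difference was -1.45. HMGCS1, which makes the substrate of the rate-limiting reductase, stood at 272 FPKM at D2, 40.0 at D3, 81.4 at D4 and 107 at D5. By the authors' deposited table of the D4 sort, 21 of these genes were listed and all 21 were higher in the PDGFRa-positive cells. The share among all 2838 listed protein-coding genes past the floor was 51.2%.

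Genes that respond to insulin, amino acid supply or FOXO factors were found in both directions. Over all entries past the floor 8.85% were higher and 10.1% lower. Of 24 listed, 19 passed the floor, 3 were higher, none of them kept at D5, and 6 were lower, all kept. The serine synthesis gene PSAT1 stood at 211 FPKM at D2, 169 at D3, 45.4 at D4 and 47.1 at D5. The cystine transporter gene SLC7A11 stood at 24.4 at D2, 34.1 at D3, 15.5 at D4 and 6.47 at D5. ARRDC4, a jumping entry, stood at 4.27 at D2, 30.6 at D3, 10.5 at D4 and 5.602 at D5. FOXO4 stood at 8.24 at D4 and 2.48 at D3, and SESN3 at 37.0 at D4 and 14.6 at D3. The time of the change from medium without insulin to complete B27 cannot be told apart from the day of collection here.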
